A study of Mus musculus with 6 samples.

Results

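Growth factor receptors let early blood progenitors read the cytokines around them. The 7 receptor genes described here are Flt3, Kit, Csf1r, Csf2ra, Csf2rb, Csf3r and Il6ra, chosen by name, and all 7 were measured among 18194 genes on the arrays. They were read by 13 of 45101 probe sets, the groups of short oligonucleotides that each report 1 transcript, counting those whose annotation names a single gene. Each gene was represented by its probe set with the highest mean over the arrays, and the other probe sets are given beside it.

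FLT3, KIT and CSF1R are receptor tyrosine kinases of 1 family, with immunoglobulin-like domains outside the cell and a split kinase domain inside, and they bind FLT3 ligand, stem cell factor (Kitl) and CSF1 or IL-34. CSF2RA, CSF2RB, CSF3R and IL6RA are cytokine receptor chains without a kinase of their own, which signal through JAK kinases and STAT factors. CSF2RB is the common beta chain of the receptors for GM-CSF, IL-3 and IL-5, and IL6RA signals through the shared chain gp130 (Il6st). In bone marrow KIT and FLT3 support stem cells and early progenitors, CSF1R marks monocytes and macrophages, and CSF3R supports neutrophil production.

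RNA came from bone marrow cells of adult mice, sorted by surface markers, in 3 groups of 2 samples with 1 Affymetrix array each. WT LSK FLT3- cells were negative for lineage markers, positive for SCA1 and KIT and without surface FLT3, the fraction in which stem cells are found. WT LMPP, lymphoid-primed multipotent progenitors, were gated alike but with high FLT3. E2A-KO LMPP passed the same gate as WT LMPP and came from E2A-KO mice. E2A is the E protein encoded by Tcf3, a basic helix-loop-helix transcription factor. All groups were C57BL/6 or on that background, and the labels do not say how the knockout was made, whether cells of several mice were pooled, or whether replicates are separate animals. The p-values therefore measure the spread between arrays, which may be technical. In bulk RNA fewer cells with a transcript and less of it per cell cannot be told apart.

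Values are log2 of the deposited RMA intensities, and the median of all probe sets lay between 3.90 and 4.04 on the 6 arrays, so levels near 4 are in the compressed low range. The upper quartile was 6.13 and 6.15 for WT LSK FLT3- and 5.78 to 5.82 for LMPP of either genotype, and the 3' minus 5' difference of the Actb control was 3.45 and 3.55 against 3.77 to 3.95, so arrays of the stem cell fraction stood apart in these measures. The same difference of the Gapdh control overlapped, at 3.25 and 3.44 against 3.09 to 3.35. The quartile and Actb differences run with the comparisons against WT LSK FLT3-, and their part in them was not tested. The targeted gene Tcf3 had 3 probe sets, and the brightest read 7.27 and 7.41 in WT LSK FLT3-, 6.93 and 6.86 in WT LMPP, against 6.80 and 6.53 in E2A-KO LMPP. The E2A-KO LMPP arrays lay below the WT LMPP arrays, but the difference of -0.23 did not pass (limma adjusted p = 0.546 over all probe sets). Probe set 1427764_a_at differed by -0.09 between genotypes, with overlapping arrays, and 1452542_x_at by -0.33, and neither passed (adjusted p = 0.869 and 0.425). The sources used here do not place these probe sets inside or outside the deleted stretch, so they check no label. Of 4 measured lineage markers that the gate removes, the myeloid marker Itgam lay below the array median on all 6 arrays, and the T cell markers Cd3e (5.03 to 5.89), Cd4 (4.62 to 5.15) and Cd8a (4.22 to 5.06) lay above it. Cd3e and Cd8a rose from WT LSK FLT3- to WT LMPP (0.59 and 0.50, limma adjusted p = 0.0155 and 0.0186).

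Promoter sequences, from RefSeq on GRCm38.p6, were searched for 5 of the 7 genes: Flt3, Kit, Csf2ra, Csf3r and Il6ra. Csf1r and Csf2rb were not searched, which does not show that RefSeq lacks their promoter sequences. The 3 shown belong to genes whose transcripts differed between the wild-type fractions below, each as the 250 bases before the transcription start, with every CANNTG in capitals. CANNTG is the E-box, the word that E proteins bind, and it reads the same on the other strand. The Flt3 window lies at chr5:147400490-147400739 on the minus strand, the Kit window at chr5:75574737-75574986 on the plus strand and the Il6ra window at chr3:89913197-89913446 on the minus strand.
Flt3: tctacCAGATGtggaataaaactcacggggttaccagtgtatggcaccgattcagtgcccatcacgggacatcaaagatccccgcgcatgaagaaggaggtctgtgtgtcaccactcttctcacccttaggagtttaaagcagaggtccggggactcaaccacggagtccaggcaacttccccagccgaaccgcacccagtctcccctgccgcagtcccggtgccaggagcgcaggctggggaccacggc
Kit: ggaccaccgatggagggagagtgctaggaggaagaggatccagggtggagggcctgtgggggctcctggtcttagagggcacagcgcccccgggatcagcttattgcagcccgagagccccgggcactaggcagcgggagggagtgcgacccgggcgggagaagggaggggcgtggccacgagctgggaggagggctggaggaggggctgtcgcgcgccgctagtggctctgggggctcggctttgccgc
Il6ra: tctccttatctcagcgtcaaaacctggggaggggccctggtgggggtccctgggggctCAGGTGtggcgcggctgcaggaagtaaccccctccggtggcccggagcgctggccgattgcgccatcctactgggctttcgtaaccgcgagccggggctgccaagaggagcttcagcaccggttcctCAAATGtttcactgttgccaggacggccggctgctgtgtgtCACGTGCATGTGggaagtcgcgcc

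An E-box stood in 66.2% of the 32851 such windows searched, which left out chr18. The Il6ra window held 4, beginning 192, 65, 24 and 18 bases before the start, the last pair side by side. The Flt3 window held 1, at 245 bases, the Csf2ra window 2, and the Kit and Csf3r windows 0. The form CAGCTG, a subset of CANNTG, was in 0 of the 5 promoters and in 13% of all windows. GAGGAA, a purine-rich word of the kind that the myeloid factor PU.1 binds, was searched on both strands and stood in 23.3% of all windows. It occurred 1 time each in Kit, Csf3r and Il6ra, 2 times in Csf2ra and 0 times in Flt3. These matches describe letters and not binding.

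Between the wild-type fractions the receptor transcripts moved in opposite directions. From WT LSK FLT3- to WT LMPP, Csf1r and Il6ra rose 1.84-fold and 1.80-fold, Kit fell 2.36-fold and Csf2rb fell 1.35-fold, while Csf2ra and Csf3r did not pass the test. Flt3, the gate between these fractions, was 3.97-fold higher in WT LMPP, which describes the sort. Counting Flt3, 3 of the 7 genes were higher and 2 lower, against 10.4% of all genes higher and 23.7% lower. Of all calls 30.5% were higher, a share that became 47.4% after quantile normalization and 17.8% with array medians subtracted, which moved the median of all genes to -0.12. The median difference of the 7 was -0.26 (log2), against -0.01 over all genes. Differences were tested with limma in 1 model of the 6 arrays, two-sided, and p-values were adjusted by Benjamini and Hochberg's method over 18194 genes with a threshold of 0.05. All differences are on the log2 scale.

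Loss of E2A went with a fall of a single receptor gene. Csf1r was 2.19-fold lower in E2A-KO LMPP than in WT LMPP, and the other 6 genes did not pass. Thus 1 of 7 fell and 0 rose, against 0.995% of all genes lower and 0.379% higher, with a median of -0.25 over the 7 and -0.02 over all genes. Against WT LSK FLT3-, E2A-KO LMPP had lower Kit and Csf2rb, and Flt3 was higher as the gate sets it, so 1 of 7 was higher and 2 were lower. Of all genes 11.0% were higher and 26.5% lower in that comparison, and higher calls made up 29.3% of calls, 44% after quantile normalization and 14.6% with array medians subtracted. The comparisons share arrays, so agreement between them is not independent.

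**Figure D1:**
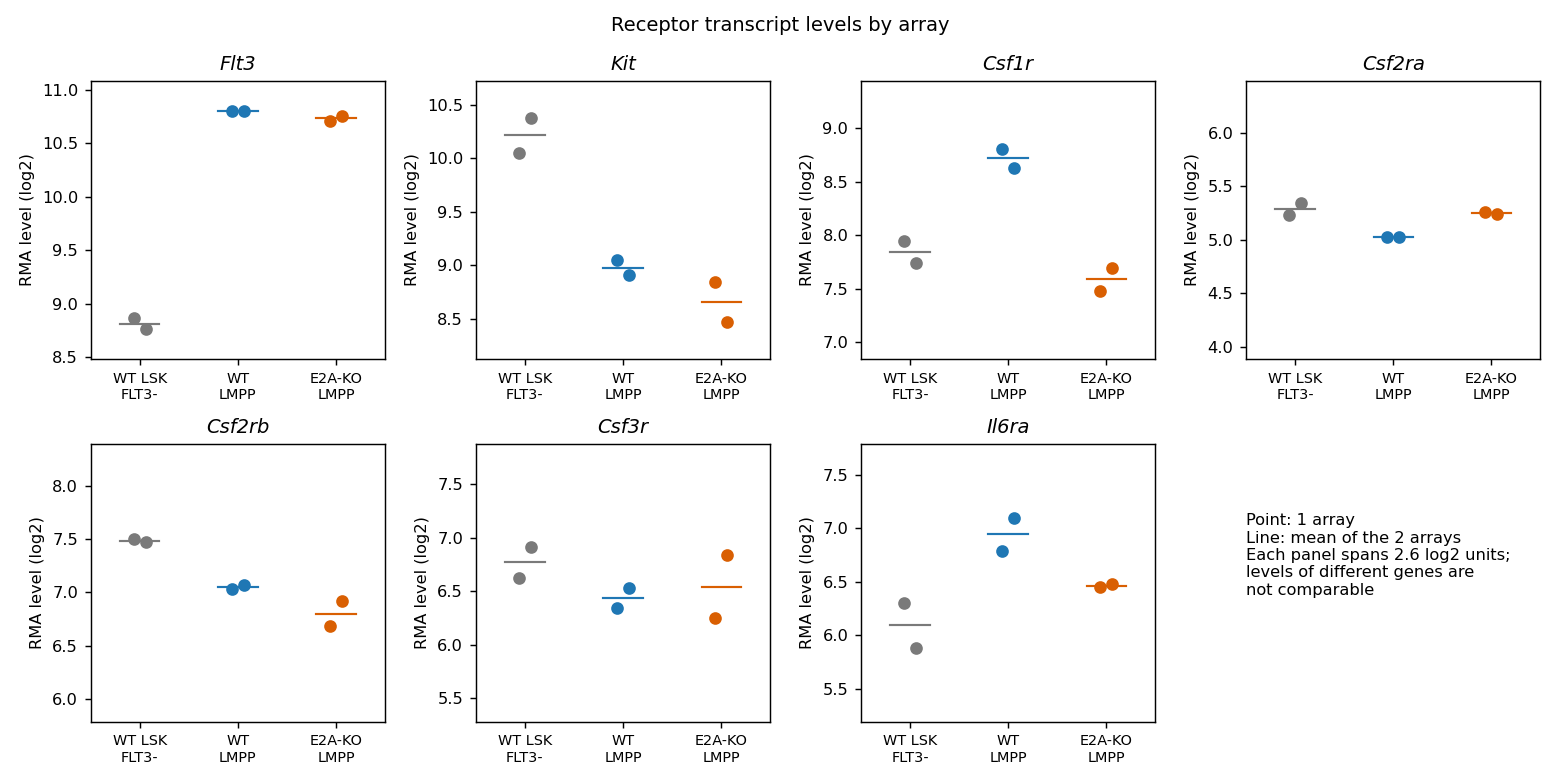
Levels of the 7 receptor transcripts on each array, as log2 RMA values on the vertical axis, in WT LSK FLT3-, WT LMPP and E2A-KO LMPP; points are arrays and lines are means of 2. Csf1r is highest on the WT LMPP arrays (8.81 and 8.63), Flt3 is low on the WT LSK FLT3- arrays and Kit is high on them.

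Csf1r encodes the CSF1 receptor, the receptor tyrosine kinase of the monocyte and macrophage lineage. It read 7.94 and 7.74 in WT LSK FLT3-, 8.81 and 8.63 in WT LMPP, against 7.48 and 7.70 in E2A-KO LMPP. Each WT LMPP array stood above the other 4, and the E2A-KO LMPP arrays stood below those of both wild-type fractions. Means were 7.84 ± 0.15, 8.72 ± 0.12 and 7.59 ± 0.15 (SD, n = 2). The difference between the LMPP genotypes was -1.13 (SE 0.15, adjusted p = 0.00811), and that from WT LSK FLT3- to WT LMPP was 0.88 (SE 0.15, adjusted p = 0.00276). In order of level WT LMPP came first, and the neighbours WT LSK FLT3- and E2A-KO LMPP did not differ beyond their spread, at -0.25 (95% interval -0.58 to 0.08, adjusted p = 0.207). Without E2A-KO LMPP replicate 1 the fall in the knockout was -1.02 and lost its call (adjusted p = 0.0668).

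The 3 Csf1r probe sets gave different values. Probe set 1419872_at gave the values above. The second, 1419873_s_at, read 6.26 and 6.29 in WT LSK FLT3-, 6.75 and 7.21 in WT LMPP, against 6.19 and 5.84 in E2A-KO LMPP. It had the same shape, with -0.96 between genotypes (adjusted p = 0.0562 over all probe sets, so it did not pass) and 0.70 between wild-type fractions (adjusted p = 0.0268). The third and dimmest, 1423593_a_at, read 5.77 and 5.10 in WT LMPP, against 5.61 and 5.56 in E2A-KO LMPP, a difference of 0.15 (adjusted p = 0.822), with overlapping groups. With the mean of the 3 probe sets the fall was -0.65 (adjusted p = 0.0358), since that mean includes the probe set without a difference.

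**Figure D2:**
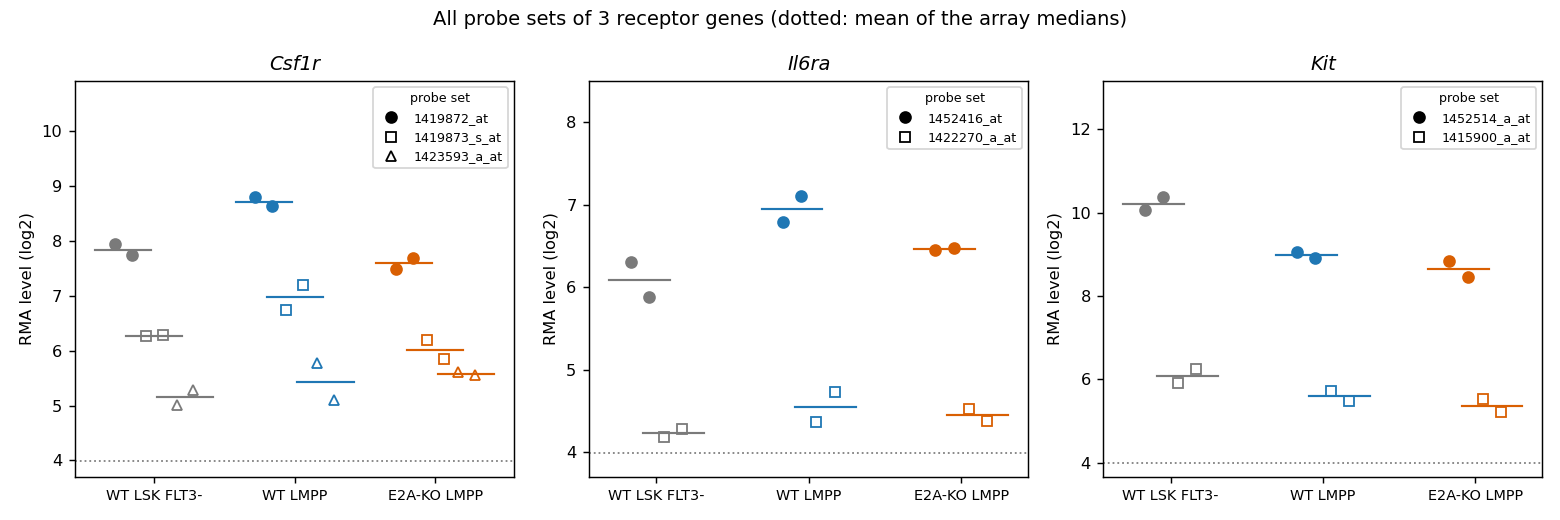
All probe sets of Csf1r, Il6ra and Kit, as log2 RMA levels per array in WT LSK FLT3-, WT LMPP and E2A-KO LMPP; filled circles are the probe set that represents the gene, open symbols the others, lines means of 2 arrays, and the dotted line the mean of the array medians. Of the 3 Csf1r probe sets, the 2 brighter are lower in E2A-KO LMPP (differences -1.13 and -0.96) and the dimmest is at 0.15.

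Of 11 measured monocyte and macrophage markers, 0 passed between the LMPP genotypes, where 0.995% of all genes were lower and 0.379% higher. The median difference of the 11 was 0.32, against -0.02 over all genes. Their summed linear intensity, which weighs bright genes most, was 484.5 to 587 in WT LMPP and 469 to 474 in E2A-KO LMPP. Cd14 and Cx3cr1 lay below the array median on all 6 arrays, and Adgre1, an adhesion receptor gene of macrophages, lay between 3.80 and 4.16. Others of the list were brighter: the lysozyme gene Lyz2 read 7.74 to 8.55, the chemokine receptor gene Ccr2 4.96 to 6.34 and the lysosomal gene Cd68 5.06 to 6.18 over the 6 arrays. Between wild-type fractions 1 of the 11 rose and 2, C1qb and Mrc1, fell, with a list median of -0.20. The summed intensity of the 11 for the stem cell fraction was 587 to 595. Ccr2 was the gene that rose, 2.29-fold (adjusted p = 0.000579). Between genotypes Ccr2 differed by -0.49 (adjusted p = 0.15), Lyz2 by -0.48 (0.154) and Cd68 by 0.52 (0.418). Of 10 mature neutrophil markers 7 were lower in E2A-KO LMPP, with summed intensities of 2996 to 2999 in WT LMPP, 600.2 to 682 in E2A-KO LMPP and 1648 to 1765 in WT LSK FLT3-, and 0 of the 10 below the array median throughout. Their part in the Csf1r result was not tested. Csf3r, the receptor of the neutrophil lineage, differed by 0.10 and did not pass.

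Flt3 encodes the receptor that defines the LMPP gate. It read 8.87 and 8.76 in WT LSK FLT3-, 10.80 and 10.80 in WT LMPP, against 10.70 and 10.76 in E2A-KO LMPP. The transcript was well above the array median in cells sorted as lacking the surface protein, and the E2A-KO LMPP arrays lay just below the WT LMPP arrays. The difference between genotypes was -0.07 (SE 0.13, adjusted p = 0.846), with a 95% interval of -0.36 to 0.21. Flt3 had a single probe set, so no second reading of it was at hand.

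Kit encodes the receptor for stem cell factor, and every group was gated positive for it. It read 10.06 and 10.38 in WT LSK FLT3-, 9.05 and 8.91 in WT LMPP, against 8.85 and 8.47 in E2A-KO LMPP. The 4 LMPP arrays lay below both WT LSK FLT3- arrays, and the E2A-KO LMPP arrays lay below the WT LMPP arrays. The fall between wild-type fractions was -1.24 (SE 0.17, adjusted p = 0.00124), and that from WT LSK FLT3- to E2A-KO LMPP was -1.56 (SE 0.17, adjusted p = 0.000388). Between the LMPP genotypes the difference was -0.32 (95% interval -0.71 to 0.08, adjusted p = 0.445). The second probe set, 1415900_a_at, averaged 6.09, 5.61 and 5.37 in the same order of groups. It fell from WT LSK FLT3- to E2A-KO LMPP (-0.72, adjusted p = 0.0157 over all probe sets) and did not pass between wild-type fractions (-0.48, adjusted p = 0.0783).

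Mast cells and granulocyte progenitors carry KIT, and the gate took cells positive for SCA1 and negative for lineage markers. Between the wild-type fractions 3 of 8 mast cell and basophil markers fell and 1, Tpsab1, rose, with a list median of -0.10. Of all genes 23.7% were lower and 10.4% higher there. The summed intensity of the 8 markers was 316 to 329 in WT LSK FLT3- and 97.4 to 109 in WT LMPP, a sum that weighs bright genes most. In the same comparison 5 of 7 granulocyte and monocyte progenitor markers fell and 0 rose, with sums of 5894 to 6541 in WT LSK FLT3- and 2732 to 2750 in WT LMPP. Fcer1a, Tpsab1 and Mcpt4, mast cell genes, lay below the array median on all 6 arrays, and no progenitor marker did. In that comparison 7 of 7 stem cell markers fell (median -1.67), and of 7 megakaryocyte and erythroid markers 6 fell and 1 rose (median -2.035). The part of any of these cells in the Kit and Csf2rb differences was not tested.

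Il6ra encodes the ligand-binding chain of the interleukin-6 receptor. It read 6.30 and 5.88 in WT LSK FLT3-, 6.79 and 7.10 in WT LMPP, against 6.45 and 6.48 in E2A-KO LMPP. The E2A-KO LMPP arrays lay between those of the wild-type fractions, with no overlap. The rise between wild-type fractions was 0.85 (SE 0.18, adjusted p = 0.00694), which lost its call without WT LSK FLT3- replicate 2 (0.64, adjusted p = 0.0761). E2A-KO LMPP did not differ beyond the threshold from either neighbour, at -0.48 against WT LMPP (adjusted p = 0.254) and 0.37 against WT LSK FLT3- (adjusted p = 0.126). The dim probe set 1422270_a_at, near the array median, averaged 4.23, 4.54 and 4.45 in the order stem cell fraction, WT LMPP and knockout, and passed in no comparison. The mean of both Il6ra probe sets kept the rise (0.58, adjusted p = 0.0149).

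**Figure D3:**
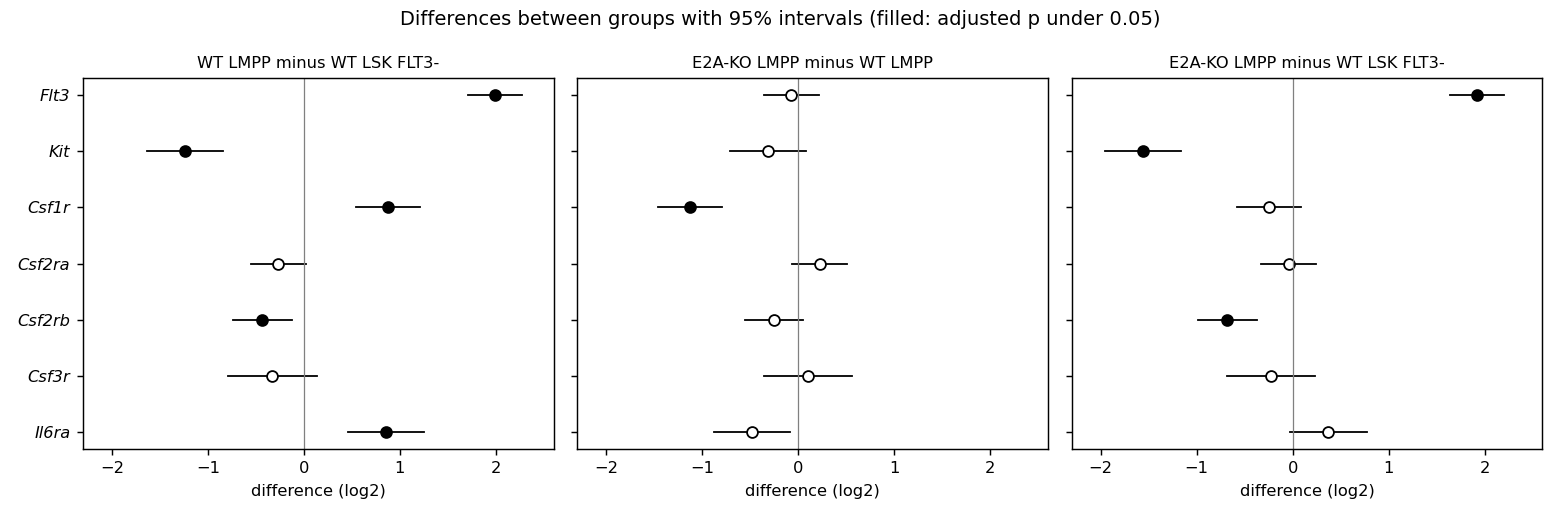
Differences between groups in log2 units (horizontal axis) for the 7 receptor genes, with 95% intervals from the model; filled points passed an adjusted p of 0.05. Between the LMPP genotypes (middle panel) Csf1r is the filled point, at -1.13, and intervals without adjustment can miss 0 where the adjusted test does not pass, as for Il6ra.

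Csf2rb encodes the common beta chain. It read 7.50 and 7.47 in WT LSK FLT3-, 7.04 and 7.07 in WT LMPP, against 6.68 and 6.92 in E2A-KO LMPP, a descending order with no overlap between neighbouring groups. The step between wild-type fractions was -0.43 (SE 0.14, adjusted p = 0.0375), and quantile normalization of the arrays left -0.04 of it (adjusted p = 0.877). The call was also lost without any 1 of the 4 wild-type arrays (adjusted p 0.072 to 0.182). The difference of E2A-KO LMPP from WT LSK FLT3- was -0.68 (SE 0.14, adjusted p = 0.00513). It was -0.23 (adjusted p = 0.261) after quantile normalization and -0.67 (adjusted p = 0.0526) without WT LSK FLT3- replicate 1. Between genotypes it was -0.25 (95% interval -0.56 to 0.05, adjusted p = 0.434).

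Mice carry a near-identical copy of this gene, Csf2rb2, the beta chain of a receptor specific for IL-3, which is the neighbour of Csf2rb among protein-coding genes in the reference table. Csf2rb2 read 5.51 and 6.06 in WT LSK FLT3-, 4.29 and 4.21 in WT LMPP, against 3.86 and 4.01 in E2A-KO LMPP. It fell by 1.54 between wild-type fractions (SE 0.18, adjusted p = 0.00061). A probe set annotated to both genes, and so counted for neither, averaged 4.48 in WT LSK FLT3-, 4.86 in WT LMPP and 4.83 in the knockout, with no comparison past the threshold. Probes for either copy can bind transcripts of the other, so the split between them is uncertain. The second Csf2rb probe set, 1421326_at, averaged 3.94, 3.78 and 3.47, at or below the array median, and it passed from WT LSK FLT3- to E2A-KO LMPP alone (-0.47, adjusted p = 0.0448 over all probe sets).

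Csf2ra, the GM-CSF-specific alpha chain, and Csf3r, the G-CSF receptor, were the genes of the 7 that passed in no comparison. Csf2ra read 5.23 and 5.34 in WT LSK FLT3-, 5.02 and 5.02 in WT LMPP, against 5.25 and 5.24 in E2A-KO LMPP, with the genotypes 0.22 apart (95% interval -0.06 to 0.51, adjusted p = 0.462). Its second probe set averaged 4.54, 4.44 and 4.21, an order that put E2A-KO LMPP lowest instead of between. Between wild-type fractions Csf2ra differed by -0.26 and passed only when array medians were subtracted (-0.37, adjusted p = 0.0475). Csf3r read 6.63 and 6.91 in WT LSK FLT3-, 6.35 and 6.53 in WT LMPP, against 6.25 and 6.83 in E2A-KO LMPP. The wild-type fractions did not overlap, while the wide knockout pair overlapped both and gave a genotype difference of 0.10 (95% interval -0.36 to 0.56, adjusted p = 0.868).

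The chains that pair with these receptors were measured too. Il6st, the signalling chain for IL6RA, read 6.22 and 6.23 in WT LSK FLT3-, 6.47 and 6.82 in WT LMPP, against 5.80 and 5.80 in E2A-KO LMPP. It fell by 0.85 in the knockout (SE 0.15, adjusted p = 0.0301), or 1.80-fold, and the E2A-KO LMPP arrays were the lowest of the 6. A second probe set, 1437303_at, read 6.72 and 6.35 in WT LSK FLT3-, 6.30 and 6.14 in WT LMPP, against 5.30 and 5.47 in E2A-KO LMPP, a difference of -0.83 between genotypes that just missed the threshold (adjusted p = 0.0591 over all probe sets). The other 2 Il6st probe sets were dimmer and did not pass, with differences of 0.03 and 0.07 (adjusted p = 0.969 and 0.878). The call was lost in 7 of 14 other settings, namely the mean of all probe sets (-0.39, adjusted p = 0.16), the 4 LMPP arrays alone (adjusted p = 0.115), and leaving out any array but WT LMPP replicate 1 (adjusted p 0.0916 to 0.126). Il3ra, the IL-3-specific chain, averaged 4.26, 4.11 and 4.43 in WT LSK FLT3-, WT LMPP and E2A-KO LMPP. Il5ra, the IL-5-specific chain, averaged 2.87, 2.98 and 2.83, below the array median, and neither passed in any comparison.

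Pdgfrb, a platelet-derived growth factor receptor of the same kinase family as Csf1r, was the other related receptor to fall in the knockout. It precedes Csf1r among protein-coding genes in the reference table, as Pdgfra precedes Kit. Pdgfrb read 7.90 and 7.77 in WT LSK FLT3-, 7.79 and 8.02 in WT LMPP, against 6.85 and 6.66 in E2A-KO LMPP. The genotypes differed by -1.15 (SE 0.14, adjusted p = 0.00654), or 2.22-fold, while the wild-type fractions differed by 0.07 (adjusted p = 0.732), unlike the rise of Csf1r there. Its dimmer probe set differed by -0.56 between genotypes (adjusted p = 0.155 over all probe sets). Without E2A-KO LMPP replicate 2 the call was lost (-1.06, adjusted p = 0.0555). Of 7 markers of bone marrow stroma, where Pdgfrb is usually found, 0 passed between genotypes, against 0.995% of all genes lower and 0.379% higher. The summed intensity of the 7 markers was 111.3 to 136.6 in WT LMPP and 140.2 to 153.4 in E2A-KO LMPP. Lepr, Col1a1, Pecam1 and Cdh5 lay below the array median on all 6 arrays. The part of stromal cells in the Pdgfrb result was not tested.

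**Figure D4:**
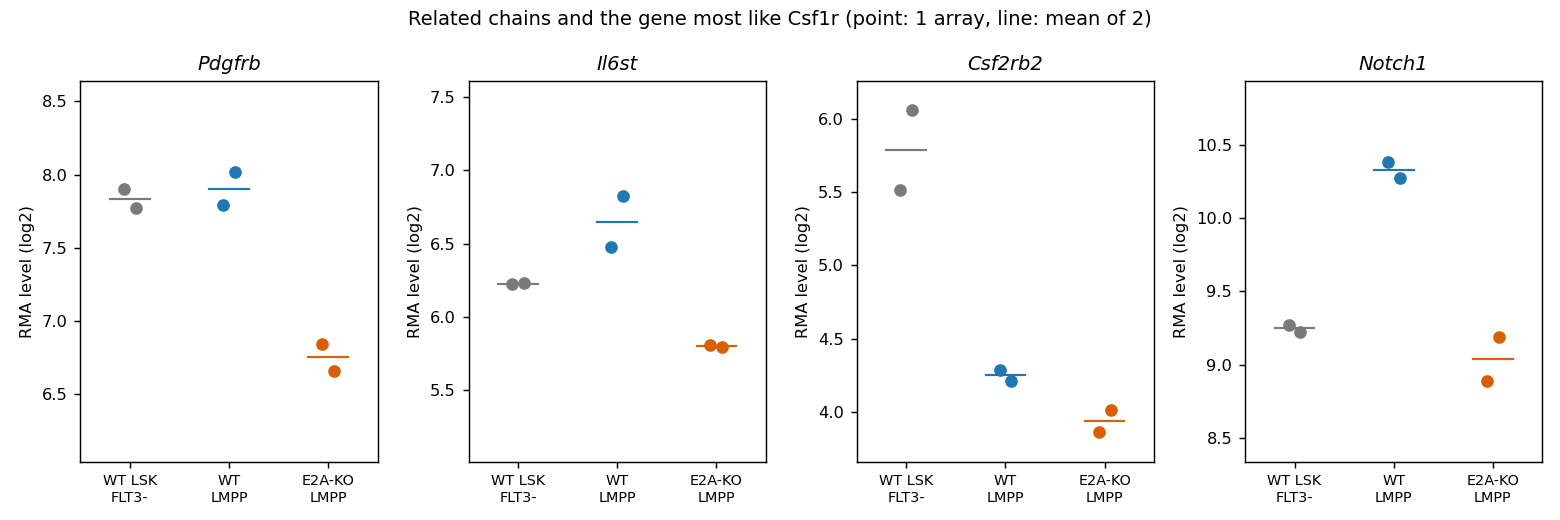
Log2 RMA levels per array of Pdgfrb, Il6st, Csf2rb2 and Notch1 in WT LSK FLT3-, WT LMPP and E2A-KO LMPP; points are arrays and lines are means of 2. Pdgfrb and Il6st are lowest in E2A-KO LMPP, Csf2rb2 is highest in WT LSK FLT3-, and Notch1 peaks in WT LMPP.

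Among 1746 other genes whose group means spanned at least 1, the patterns most like that of Csf1r over the 6 arrays were those of Notch1 (Pearson's r = 0.9923), the receptor of the Notch pathway, Arpp21 (0.9915) and the actin-binding protein gene Gsn (0.9822). Notch1 averaged 9.25, 10.33 and 9.04 in WT LSK FLT3-, WT LMPP and E2A-KO LMPP, so it too was highest in WT LMPP. For Kit they were the myeloperoxidase gene Mpo (0.9995), Tent5c (0.9931) and Zfp930 (0.9923). Mpo averaged 11.47, 10.56 and 10.36 in that order of groups. For Flt3 they were Wfdc18 (0.9983), Csdc2 (0.9976) and the tropomyosin gene Tpm4 (0.9964), all higher in the LMPP groups. These correlations describe 6 arrays in 3 groups, and each gene shares the arrays with the receptor it is set beside. The other 4 receptor genes spanned less than 1 between group means.

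The 6 lists of genes around the receptors held 93 genes, of which 81 were measured by a probe set with a single symbol. In E2A-KO against WT LMPP 5 of the 81 fell and 0 rose, spread over the lists of chains, adaptors, inhibitors and transcription factors. Leaving out any 1 array brought the 5 down to between 1 and 3. Between wild-type fractions 31 fell and 8 rose, and between E2A-KO LMPP and WT LSK FLT3- 38 fell and 9 rose. Without WT LSK FLT3- replicate 1 or 2 the wild-type counts were 17 and 21 lower and 4 and 3 higher, and without E2A-KO LMPP replicate 1 or either WT LSK FLT3- array the 9 became 2 to 4. The shares of all genes given above for the 7 receptors hold for these counts as well.

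Of 8 measured ligand transcripts 0 changed between LMPP genotypes. Csf1, the ligand of CSF1R, read between 5.44 and 6.15 over the 6 arrays, above the array median. The largest differences were those of Csf2, which encodes GM-CSF (-0.49, adjusted p = 0.135), and Il5 (0.21, adjusted p = 0.568). Between the wild-type fractions 2 of 8 rose, Csf2 by 1.01 (adjusted p = 0.00098) and Kitl, stem cell factor, by 0.39 (adjusted p = 0.0395). Csf2 read 3.94 and 3.83 in WT LSK FLT3- and 4.84 and 4.95 in WT LMPP, and Kitl stayed below the array median on all arrays. The Kitl rise was lost in 10 of the 13 other settings that measured it. The list's median was 0.12 between genotypes and 0.38 between wild-type fractions. Against WT LSK FLT3-, 5 of 8 rose in E2A-KO LMPP (median 0.51), including Csf3 (0.59), Il5 (0.58), Csf1 (0.54) and Csf2 (0.52). Csf3 and Il5 read below the array median on all 6 arrays. These calls were lost in 5 of 13 other settings for Csf3, 4 of 13 for Il5, and 4 of 14 each for Csf1 and Csf2. Leaving out WT LSK FLT3- replicate 1 ended all 4, and quantile normalization ended those of Csf3, Il5 and Csf2.

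Of 11 partner and related chains, 2 fell between genotypes, Pdgfrb and Il6st, with a list median of -0.04. Between wild-type fractions 4 fell and 1 rose (median 0.02). The angiopoietin receptor gene Tek fell by 3.01, from 6.00 and 6.21 to 3.12 and 3.07, below the array median. Epor, the erythropoietin receptor, fell by 0.75 (adjusted p = 0.00287) beside Csf2rb2. Lifr, the leukemia inhibitory factor receptor, rose by 0.69 (adjusted p = 0.0381), a call lost in 6 of the 13 other settings that measured it. Lifr read 3.09 and 2.90 in WT LSK FLT3- and 4.05 and 3.34 in WT LMPP, near or below the array median. In E2A-KO LMPP against WT LSK FLT3-, 6 fell and 1 rose (median -0.43).

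JAK kinases and STAT factors, which carry the signal of the cytokine chains, fell between wild-type fractions in 4 of 10 cases, with 0 rises and a median of -0.33. Stat5a fell by 0.91 (SE 0.15, adjusted p = 0.0024), Stat3 by 0.75, Jak2 by 0.67 and Jak1 by 0.63. Jak2 and Jak1 no longer passed after quantile normalization (-0.36 and -0.32), Jak2 without WT LSK FLT3- replicate 1 (adjusted p = 0.0637) or Jak1 without replicate 2 (0.0877), and the mean of all probe sets ended the Stat3 call (-0.26, adjusted p = 0.0946). Between genotypes 0 of 10 passed (median -0.12), and the largest differences were Stat2 (-0.66, adjusted p = 0.0606) and Stat4 (-0.64, adjusted p = 0.0643). Against WT LSK FLT3-, 6 of 10 fell in E2A-KO LMPP (median -0.59), with Stat5a at -1.04, Stat4 at -0.92, Stat3 at -0.87 and Jak2 at -0.75. There too the mean of all probe sets ended the Stat3 call (-0.20, adjusted p = 0.169) and quantile normalization the Jak2 call (-0.40, adjusted p = 0.0596). After quantile normalization Stat5a and Stat4 still passed at -0.59 and -0.48, as did Stat5a between wild-type fractions at -0.52.

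Among 19 measured adaptors and kinases below the receptors, 8 fell and 1 rose between wild-type fractions (median -0.13). Pik3cd, the leukocyte PI3-kinase catalytic subunit, rose by 1.93 (SE 0.18, adjusted p = 0.000206), from 7.40 and 7.52 to 9.66 and 9.13, and with the mean of its probe sets by 0.31 (adjusted p = 0.0734). The docking protein gene Gab1 fell by 0.94, the exchange factor gene Sos1 by 0.87 and the MAP kinase kinase gene Map2k1 by 0.85, and after quantile normalization Gab1 by 0.54 and Map2k1 by 0.48, still past the threshold. The mean of all probe sets ended the Sos1 call (-0.21, adjusted p = 0.188). Between genotypes 1 of 19 fell (median -0.12): Plcg1, a phospholipase C, by 1.21 (SE 0.17, adjusted p = 0.0109). Plcg1 read 7.70 and 7.62 in WT LMPP, against 6.22 and 6.68 in E2A-KO LMPP, with 7.57 and 7.68 in WT LSK FLT3-. The mean of all its probe sets gave -0.17 (adjusted p = 0.521), so the fall rests on the brightest. Its call also ended on the 4 LMPP arrays alone (adjusted p = 0.0516) and without replicate 1 of WT LMPP or of the knockout (0.0545 and 0.0536). Leaving out a WT LSK FLT3- array leaves only the 4 LMPP arrays to estimate the spread, and so gives that same p. In E2A-KO LMPP against WT LSK FLT3-, 11 fell and 1 rose (median -0.44).

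Of 18 inhibitors of receptor signalling 8 fell and 1 rose between wild-type fractions (median -0.40). Grb10, an adaptor that binds receptor kinases, fell by 4.89, from 8.80 and 8.84 to 3.97 and 3.89, and with the mean of its probe sets by 1.53. Socs2, a suppressor of cytokine signalling induced by STAT5, fell by 1.23 (0.40 with the mean of its probe sets), Spry1 by 0.91 (0.59 after quantile normalization) and Spred1 by 0.72. The Spred1 call was lost after quantile normalization and without WT LMPP replicate 1 or either WT LSK FLT3- array (adjusted p up to 0.142). Between genotypes 1 of 18 fell (median -0.01), Socs2 by 0.79 (SE 0.13, adjusted p = 0.0248). Socs2 read 5.67 and 5.63 in WT LSK FLT3-, 4.51 and 4.33 in WT LMPP, against 3.65 and 3.62 in E2A-KO LMPP, so the knockout arrays were below the array median. The genotype call was lost in 7 of 14 other settings, with the mean of all probe sets (-0.25, adjusted p = 0.397), on the 4 LMPP arrays (0.102), and without any array but WT LMPP replicate 2 (0.0793 to 0.115). Against WT LSK FLT3-, 8 fell and 0 rose (median -0.31), with Socs2 at -2.01 and Cish, another STAT5-induced suppressor, at -1.26. The mean of its probe sets gave -0.65 for Socs2, and quantile normalization gave -0.82 for Cish, with both calls kept.

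Among 15 transcription factors known to act on receptor genes, 7 fell and 3 rose between wild-type fractions (median -0.12). Irf8, a monocyte and dendritic cell factor, rose by 1.93 (SE 0.13, adjusted p = 4.25e-05), while Gata2 fell by 2.83, Mitf, a regulator of Kit in mast cells, by 1.38 (0.46 with the mean of its probe sets) and Tal1 by 1.19. Between genotypes 1 of 15 fell (median -0.03): Klf4, a monocyte factor, by 1.13 (SE 0.20, adjusted p = 0.0343). It read 5.26 and 5.45 in WT LMPP, against 3.93 and 4.53 in E2A-KO LMPP. The Klf4 call was lost with the mean of its probe sets (-0.51, adjusted p = 0.0809), on the 4 LMPP arrays (0.102) and without any array but E2A-KO LMPP replicate 2 (0.0758 to 0.126). Spi1, which encodes PU.1, the activator of Csf1r in myeloid cells, is named here after its values were seen. Its WT LMPP arrays read 6.59 and 6.77 and its knockout arrays 6.15 and 6.33, a difference that did not pass (-0.44, adjusted p = 0.226). Against WT LSK FLT3-, 7 fell and 2 rose in E2A-KO LMPP (median -0.36), with Gata2 at -2.73, Mitf at -1.93 (-0.97 with the mean of its probe sets), Irf8 at 1.72 and Tal1 at -1.16.

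**Figure D5:**
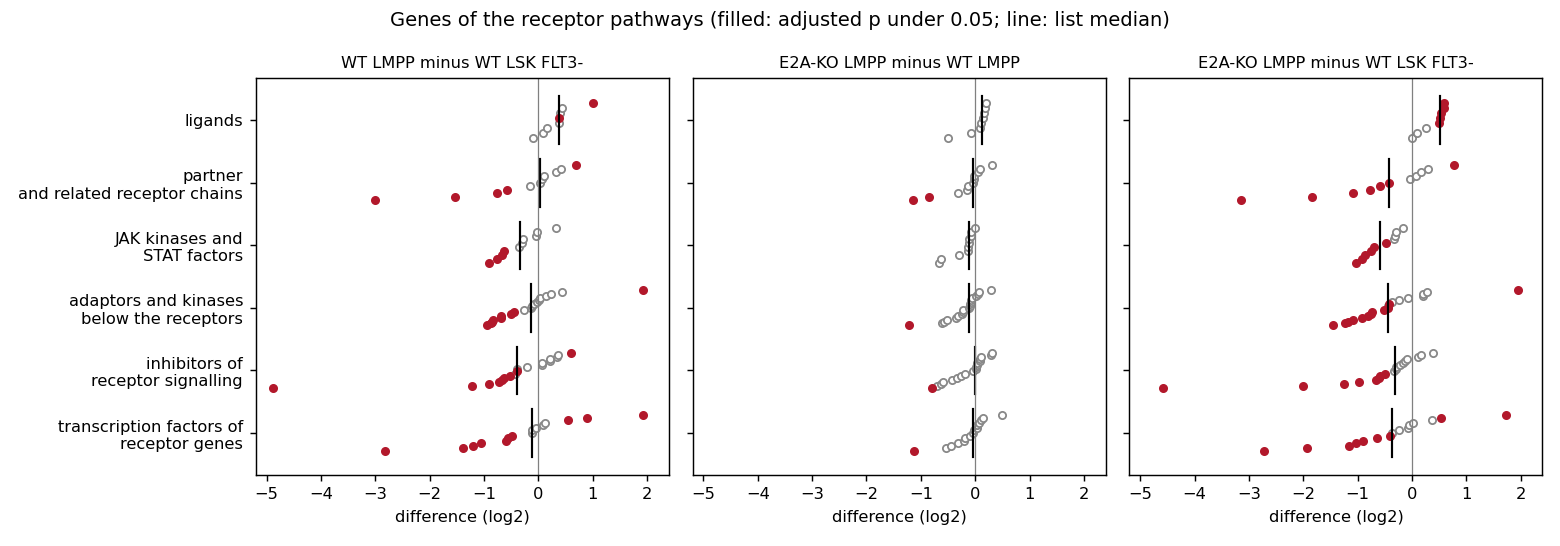
Differences in log2 units (horizontal axis) of the measured genes of 6 pathway lists in the 3 comparisons; each point is a gene, filled where its adjusted p was under 0.05, and vertical lines are list medians. Between the LMPP genotypes (middle panel) 5 of 81 points are filled, all below 0.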

How the data were processed

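RNA from 6 sorted cell samples was labelled by a kit with 2 rounds of amplification that starts at the 3' end and was hybridised to Affymetrix arrays, per the labels' protocols. The authors deposited RMA intensities on a linear scale, with RMA named in the submitters' processing notes without a version, and log2 was taken here. RMA as usually run fits background, quantile and probe effects, which compresses low values. The deposited arrays did not share 1 distribution, with upper quartiles of 6.13 and 6.15 for WT LSK FLT3- and 5.78 to 5.82 for LMPP. Quantile normalization over the 6 arrays gave 1840 lower genes between wild-type fractions in place of 4309. Depth does not apply to arrays, and the 2 arrays a group limit precision. The platform annotation gives 1 symbol to 34958 of 45101 probe sets, several to 932 and none to 9211. Probe sets and promoters of the 7 receptor genes were picked by symbol, and the Entrez IDs of all 7 were found in the RefSeq gene reference. Groups came from sample titles; a description that calls every sample WT LMPP was set aside because titles and sources differ from it. Each gene was tested with limma 3.58.1 (R 4.3.3) on all 6 arrays, with 3 residual and 5.8 prior degrees of freedom, and the script was tested on simulated data. Figures were drawn with matplotlib 3.10.9.

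The receptors, the gene lists and the cell type markers were chosen with earlier results of these data known. Named beside the receptors were, in each list and comparison, up to 4 genes with the largest differences among those past the threshold, or 2 where a list had none, the partner chains Csf2rb2, Il3ra, Il5ra and Il6st, and the 3 genes most alike a receptor whose group means spanned at least 1. Same-numbered arrays did not deviate together (Pearson's r -0.022, -0.0417 and 0.0226 over genes), so numbers were not used as pairs. The 14 alternative settings are given in the closing section.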

Additional observations from a re-analysis of the deposited data

How the results depend on the processing

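With 2 arrays a group, 14 other settings were run, and no result changed sign past the threshold. The count of receptor genes lower in E2A-KO than in WT LMPP was 1, and 0 to 1 when 1 array was left out. Against WT LSK FLT3-, E2A-KO LMPP had 2 higher and 1 lower receptor gene after quantile normalization, where Il6ra passed (0.75, adjusted p = 0.0158) and Csf2rb did not; with 1 array left out the lower count was 1 to 2. Between wild-type fractions the lower count was 1 with a gene's probe sets averaged, with all probe sets as the unit and after quantile normalization, 3 with array medians subtracted, and 1 to 2 with 1 array left out; the higher count was then 2 to 3. Of the pathway genes, 1 was lower in E2A-KO than in WT LMPP on the 4 LMPP arrays alone, and 1 to 3 with 1 array left out. With 1 array left out, E2A-KO LMPP against WT LSK FLT3- gave 2 to 9 higher and 26 to 39 lower, and the wild-type fractions gave 3 to 8 higher and 17 to 31 lower. A fit with the replicate block changed no call of a receptor gene; it gave 54 higher and 146 lower of all genes between genotypes, against 69 and 181 without it, and 19 and 70 on the 4 LMPP arrays and 162 and 386 with a variance trend. Without WT LSK FLT3- replicate 1 or 2, WT LMPP had 473 and 503 higher genes in place of 1889. A lone array of a group is assumed to vary like the others.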
